A study of Mus musculus with 67 samples.

Results

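The genes described here are 41 parts of the engine that drives the cell cycle: cyclins, cyclin-dependent kinases (CDKs), CDK inhibitors, the retinoblastoma (pocket) proteins, E2F transcription factors and their closest regulators. They were chosen by name out of 39179 gene rows, but with earlier results of these data known. They were divided into a G1 arm of 19 genes (D cyclins, Cdk4, Cdk6, Cdk7, inhibitors, pocket proteins and the E2Fs that pair with them) and an S and G2/M arm of 22 genes. All 41 genes were read in individual smooth muscle cells (VSMCs), which give arteries their contractile force, grown from the descending aorta of adult C57Bl6 males 3 to 4 months old. Cultures grew in DMEM with 10% fetal bovine serum and 1% penicillin/streptomycin and were left for 5 days, and the passage 1 cells were then detached with trypsin and replated as passage 2. A microfluidic system turned each cell into 1 library, which gave 22 cells at passage 1 and 45 at passage 2. Cells are numbered within a passage by name only. The labels tie no cell to an animal or a culture, so each passage is 1 sample, no test between passages was made, and every SD is the spread between cells.

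In textbook terms, growth signals raise the D cyclins, which with Cdk4 or Cdk6 begin to phosphorylate the pocket proteins and so release E2F factors. E2Fs switch on the E cyclins, Cdk2 and the genes of DNA synthesis, and cyclin A, the B cyclins and Cdk1 then carry the cell through G2 and mitosis until the anaphase-promoting complex destroys the cyclins. The INK4 inhibitors (Cdkn2a to Cdkn2d) block Cdk4 and Cdk6, and the CIP/KIP inhibitors (Cdkn1a to Cdkn1c) act mainly on the CDKs that pair with cyclins E and A. Medial VSMCs rarely divide in the healthy adult vessel and re-enter the cycle when placed in serum.

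Depth and identity of the cells bear on all values below. A passage 1 cell had between 817021 and 1561129 reads and a passage 2 cell between 548419 and 1509589, and a median of 8477.5 and 7257 genes had a read, so passage 1 cells were deeper. All passage 1 library names carry one prefix and all passage 2 names another, so passage and library set cannot be told apart. At least 3 of 10 smooth muscle markers were found at a value of 10 or more in 20 of the 22 cells of passage 1 and 45 of the 45 of passage 2, and Acta2, the smooth muscle actin gene, reached it in 20 and 45. Of the other markers of that list, Cald1 reached it in 22 and 45 cells, Tagln in 16 and 45, and Myl9 in 14 and 41. Smtn reached it in 13 and 30 and Lmod1 in 7 and 31. Itga8 reached it in 3 and 36 cells, Myh11 in 2 and 18, and Cnn1 and Myocd each in 2 and 8. At least 3 of 10 endothelial markers did so in 5 of 22 and 2 of 45 cells, 3 of 10 fibroblast markers in 15 and 28, and 3 of 10 macrophage markers in 1 and 0. Passage 2 cell 8 carried 9 endothelial markers beside 4 of smooth muscle. Of 20 genes of blood and striated muscle, taken as a background, the highest share of cells at 10 was that of Lck, a T cell kinase, at 9.09% and 8.89%.

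S and G2/M genes all had lower means at passage 2, while G1 genes stood on both sides of no difference. Values are counts that the authors divided by a size factor per cell, and the log2 ratio is log2(mean + 1) over passage 2 cells minus the same over passage 1 cells. A gene counted as measured where one passage had both a mean of 10 or more and reads in 25% or more of cells, which held for 8682 genes and for 34 of the 41 members. Of the 22 S and G2/M genes 19 were measured, all 19 had a negative log2 ratio and 17 were at least 2-fold lower, where 19.4% of all measured genes were. Their median log2 ratio was -1.72, a fold of 3.30, against -0.11 over all measured genes. Of the 19 G1 genes 15 were measured, 2 were at least 2-fold lower and 3 at least 2-fold higher, where 14.4% of all measured genes were higher by that much, and their median was 0.26. Without the cells that carry endothelial markers the medians were -1.69 and 0.48.

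**Figure D1:**
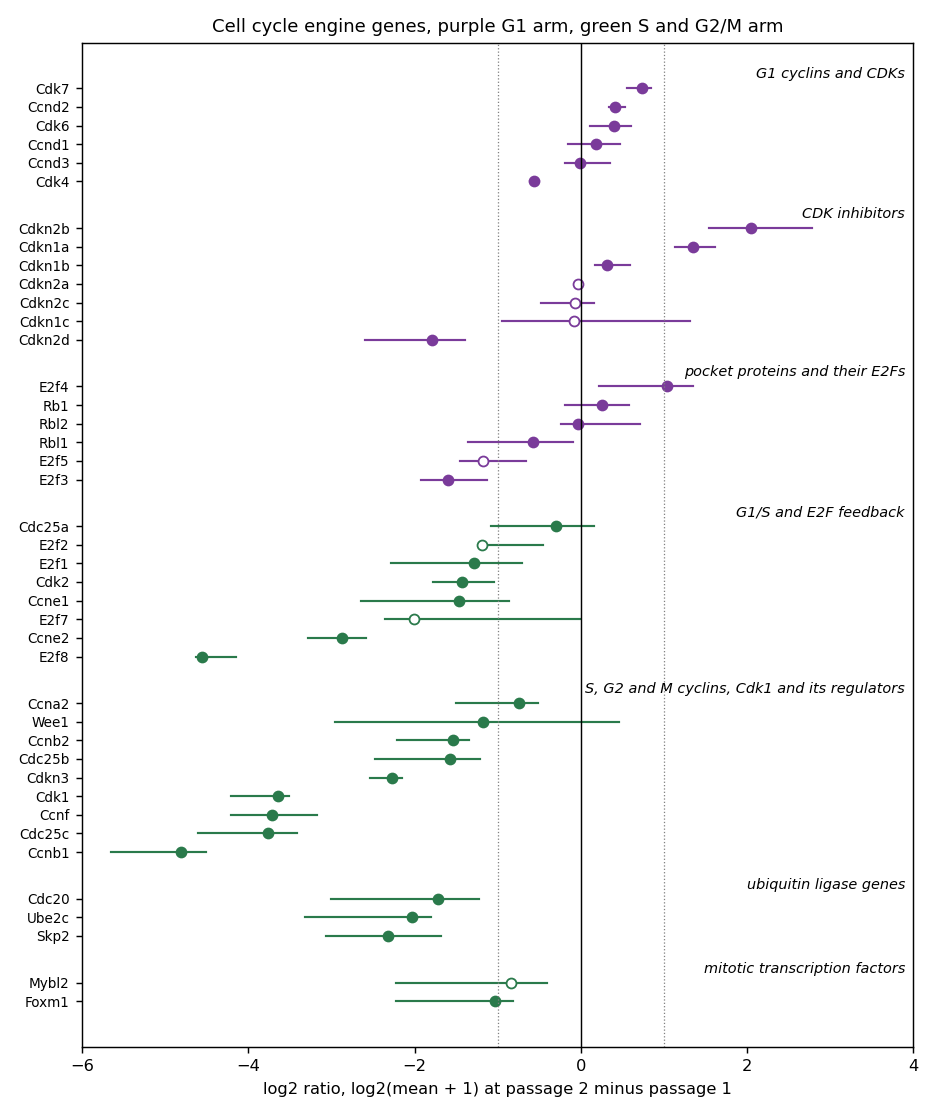
Log2 ratio of passage 2 over passage 1 on the horizontal axis for each of the 41 genes, grouped by role. Filled points are measured genes, open points are genes under the filter, horizontal lines span the values with each cell left out in turn, and dotted lines mark a 2-fold difference. The green points of the S and G2/M arm all lie left of 0, while the purple points of the G1 arm lie on both sides.

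The filter itself leans on these counts, since 13 of the 19 measured S and G2/M genes passed it at passage 1 only. A gene with a mean under 10 in the other passage had to differ. Cdc25a, Cdc25b and Foxm1 failed at passage 2 on the share of cells with a read instead, at passage 2 means of 10.4, 10.02 and 19.1. Of the 15 measured G1 genes, 3 passed at passage 1 only, Cdkn2d and E2f3 among them, and 2 at passage 2 only, Cdkn2b and E2f4. With no filter, 22 of 22 S and G2/M genes and 10 of 19 G1 genes had a negative log2 ratio, as did 49.7% of the 20000 genes with a read, and the medians of the arms were -1.65 and -0.01. Among the 6 S and G2/M genes that passed in both passages (Ccne2, Ccna2, Ccnb2, Cdk1, Cdkn3 and Ube2c) the median was -2.16, and 5 were at least 2-fold lower. Among the 10 G1 genes that passed in both, 0 were lower and 1 was higher by that much, with a median of 0.29. Over all 6616 genes that passed in both, 12.3% were lower and 10% higher by that much, with a median of -0.07. The heat map of all members shows where the reads lie. In passage 1 a cell held a median of 10.5 of the 22 S and G2/M genes at 10 or more. In passage 2 the median was 2, and 6 of 45 cells held at least 5.

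**Figure D2:**
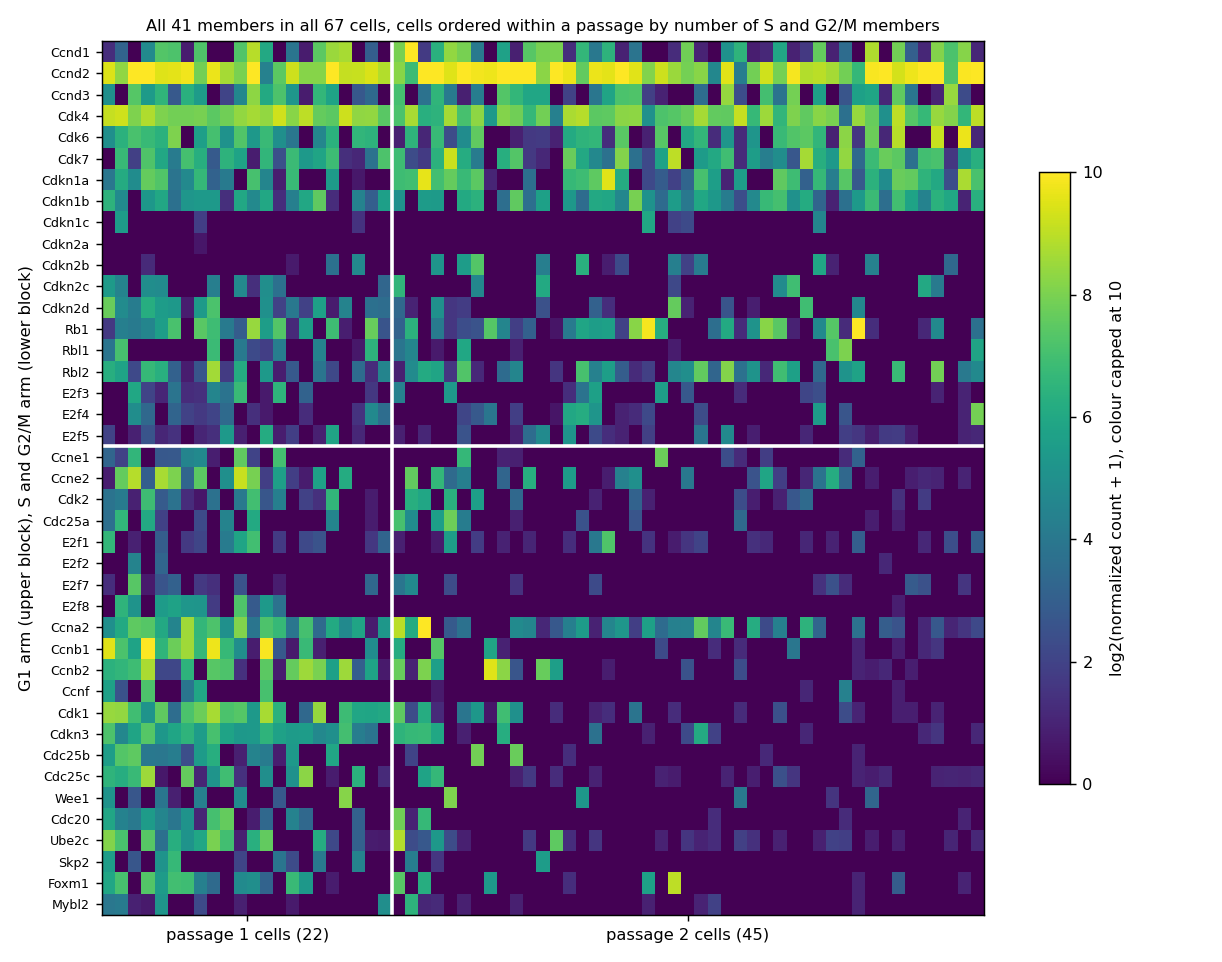
Each column is 1 cell and each row 1 of the 41 genes, coloured by log2(normalized count + 1) up to 10. Cells are ordered within each passage by how many S and G2/M genes they hold at a value of 10 or more, which the order itself fixes as falling from left to right. Ccnd2 and Cdk4 are bright in nearly every column of both passages, and the lower right block is dark apart from scattered cells and the row of Ccna2.

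Among the G1 cyclins and CDKs, none of 6 differed 2-fold, and their median log2 ratio was 0.29. Ccnd2 (chromosome 6, 127125162 to 127152193), the cyclin D2 gene, had the highest mean of the group. It ranged from 20 over a median of 590 to 1744 in passage 1 cells and from 17.8 over 749 to 2765 in passage 2 cells. Every cell of both passages was above 10 and the ranges overlapped almost fully, with means of 641 ± 418 (SD, n = 22 cells) and 852 ± 703 (SD, n = 45 cells) and a log2 ratio of 0.41. Cdk4 (chromosome 10, 127063534 to 127067920), the kinase that D cyclins activate, was also above 10 in every cell. It ran from 170.5 over 310.1 to 619 in passage 1 and from 11.9 over 204 to 553 in passage 2, and its log2 ratio of -0.56 was the lowest of the group. The passage 2 cell had the lower Cdk4 value in 70.4% of pairs of cells from the 2 passages, so the lower tail lay in passage 2 while the upper ends met. Cdk7, the kinase that activates other CDKs and also serves transcription, had the highest ratio of the group at 0.73, with values of 0, 55.1 and 151 (lowest, median, highest) in passage 1 and 0, 46.9 and 588 in passage 2. Its median was lower at passage 2 while its mean was higher, at 97.4 against 58.3.

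Ccnd3, the cyclin D3 gene, ran from 0 over 33.8 to 314 in passage 1 and from 0 over 12.5 to 354 in passage 2, with means of 55.4 and 55.1 and a log2 ratio of -0.01. Ccnd1, the cyclin D1 gene, reached 10 in 11 of 22 and 25 of 45 cells, with a log2 ratio of 0.18 that became -0.16 without passage 2 cell 8, 1 of the 2 passage 2 cells with endothelial markers. Cdk6 reached 10 in 18 of 22 passage 1 cells but in 22 of 45 passage 2 cells, and its median went from 65.9 to 4.05 while its mean was 70.8 and 93.7. A read was present in 18 and 37 cells, so passage 2 held a smaller share of cells at 10 and some with far more, up to 838 in cell 37. Per kilobase of exon, Ccnd2 was the D cyclin with the highest level in both passages, at means of 68.1 and 90.5 normalized counts per kb against 21 and 23.8 for Ccnd1 and 6.31 and 6.28 for Ccnd3. It was the highest of the 3 in 17 of 22 cells and 38 of 45 cells. Cdk4 exceeded Cdk6 per kilobase in 22 of 22 and 43 of 45 cells, with means of 106 and 71.4 against 5.06 and 6.70 normalized counts per kb.

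CDK inhibitors split by gene: Cdkn1a and Cdkn2b stood higher at passage 2 and Cdkn2d lower, while Cdkn1c, Cdkn2a and Cdkn2c were under the filter. Cdkn1a (chromosome 17, 29090976 to 29100727) encodes p21, the inhibitor that p53 induces. It ran from 0 over 15.4 to 196 in passage 1 cells and from 0 over 69.5 to 790 in passage 2 cells, reaching 10 in 13 of 22 and 29 of 45. The share of cells at 10 was close, at 59.1% (95% Clopper-Pearson interval 36.4 to 79.3) and 64.4% (48.8 to 78.1), and the upper part of the range lay in passage 2. Its log2 ratio was 1.35, between 1.14 and 1.62 with any cell left out. Cdkn1b, which encodes p27, the inhibitor of quiescent cells, ran from 0 over 31.9 to 189 and from 0 over 39.5 to 245, with a log2 ratio of 0.31 and 16 of 22 and 37 of 45 cells at 10.

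Cdkn2b, the p15 gene that TGF-beta induces, had the highest log2 ratio of all members at 2.05, but it rested on few cells. Its median was 0 in both passages, its highest value was 25 and 158, and 2 of 22 and 9 of 45 cells reached 10. With any cell left out the ratio stayed between 1.55 and 2.78. Cdkn2d (chromosome 9, 21288410 to 21291407), the p19 INK4d gene, stood the other way, from 0, 16.1 and 210 (lowest, median, highest) to 0, 0 and 197. It reached 10 in 14 of 22 passage 1 cells and 4 of 45 passage 2 cells, with a log2 ratio of -1.79, and -2.59 without passage 2 cell 40, which held 48.4% of its passage 2 sum. The direction was not kept in the 12 pairs of cells matched on reads, where it was 1.40, and it was -0.52 without the cells with Mki67 or Top2a at 10. Over passage 1 cells Cdkn2d had a correlation of 0.53 with a cell's reads. Cdkn2c, the p18 gene, reached 10 in 8 of 22 and 7 of 45 cells at nearly equal means of 9.76 and 9.26. Cdkn1c, the p57 gene, reached it in 1 and 2 cells. Cdkn2a, the locus of p16 and ARF, gave 1 read in all passage 1 cells and 0 in passage 2. The 0 of 45 cells allows up to 7.87% of cells with a read (95% Clopper-Pearson), which does not limit the share of cells that express the gene.

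**Figure D3:**
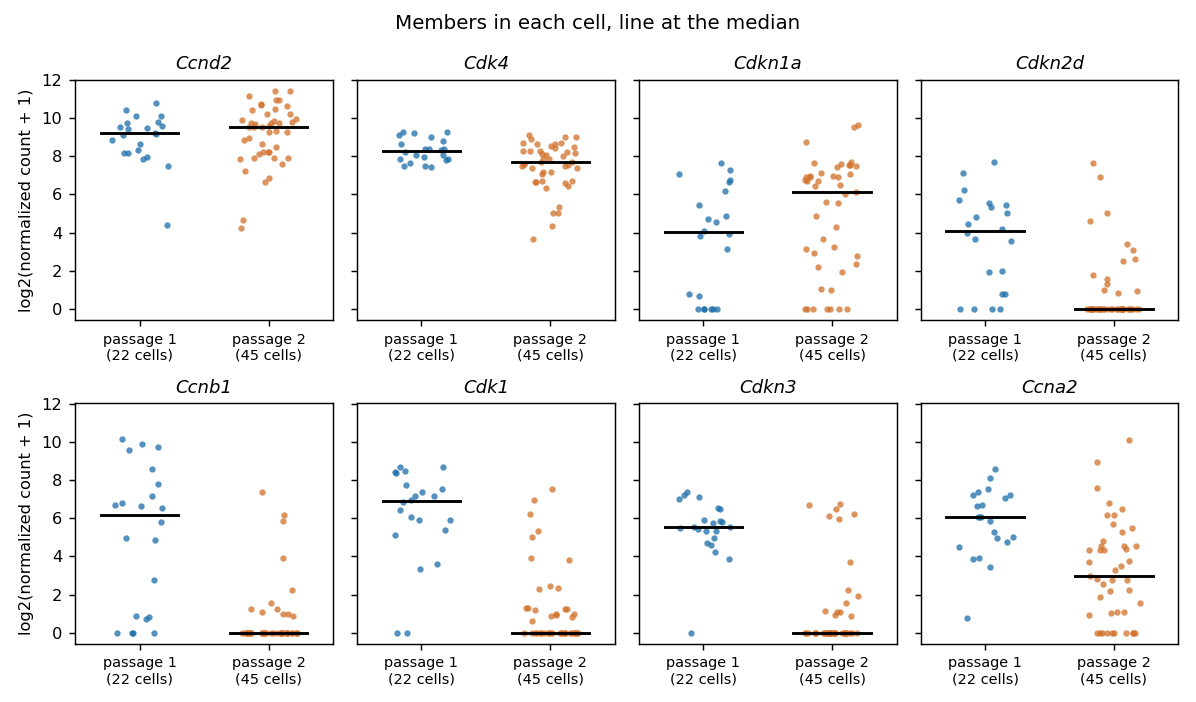
Each point is 1 cell, placed by log2(normalized count + 1), with 22 passage 1 cells in blue and 45 passage 2 cells in orange and a black line at the median. Ccnd2 and Cdk4 overlap between passages, the Cdkn1a median is higher at passage 2, and the medians of Cdkn2d, Ccnb1, Cdk1 and Cdkn3 are at 0 there.

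The pocket proteins and their E2Fs had a median log2 ratio of -0.03, and their values lay in scattered cells. Rb1, the retinoblastoma gene, had the highest mean of the group and ran from 0 over 20.5 to 349 in passage 1 and from 0 over 7.46 to 1055 in passage 2. Its log2 ratio of 0.26 became -0.19 without passage 2 cell 43. Rbl1, which encodes p107, ran from 0 over 0 to 135 and from 0 over 0 to 257, with 7 of 22 and 6 of 45 cells at 10 and a log2 ratio of -0.57. Rbl2, which encodes p130, the pocket protein of resting cells, ran from 0 over 6.70 to 394 and from 0 over 10.4 to 278, with a log2 ratio of -0.03. With all cells neither retinoblastoma relative differed 2-fold. Rbl1 was at -1.36 without passage 2 cell 38, which held 46.6% of its passage 2 sum, and at -0.10 without passage 1 cell 10.

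A pair of the E2F factors of this group lay past the 2-fold mark, in opposite directions. Each passed the filter only in the passage where its mean was higher. E2f3, an activating E2F, ran from 0 over 1.29 to 107 in passage 1 and from 0 over 0 to 49.9 in passage 2, with a log2 ratio of -1.60. E2f4, the E2F of repressor complexes in resting cells, ran from 0 over 1.47 to 29.1 and from 0 over 0 to 240, with a log2 ratio of 1.04. That value became 0.22 without passage 2 cell 42, and 4 of 22 against 6 of 45 cells reached 10. E2f5 was under the filter, at means of 8.48 and 3.19.

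The G1/S genes and the E2Fs that E2F itself induces were all lower at passage 2, 5 of the 6 measured by 2-fold or more, with a median log2 ratio of -1.45. Ccne2 (chromosome 4, 11191351 to 11204779), a cyclin E gene and the highest of the group at passage 1, ran from 0 over 19.5 to 572 in passage 1 and from 0 over 0.72 to 190 in passage 2. Its means were 117 ± 174 (SD, n = 22 cells) and 15.1 ± 35.2 (SD, n = 45 cells), a log2 ratio of -2.88, and 11 of 22 and 12 of 45 cells reached 10. Ccne1 reached 10 in 5 and 2 cells, and 1 passage 2 cell, cell 35, held 64.2% of its sum there. Its log2 ratio was -1.46, and -2.64 without that cell. Cdk2, the partner of cyclins E and A, stood at -1.43 and E2f1 at -1.29, the latter -2.29 without passage 2 cell 27. Cdc25a, the phosphatase that activates Cdk2, had the highest ratio of the group at -0.30, with 0, 0 and 94.4 (lowest, median, highest) in passage 1 and 0, 0 and 221 in passage 2. Leaving out passage 2 cell 18 made it -1.09, and leaving out passage 1 cell 10 made it 0.16, so its direction rested on single cells.

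E2f8 (chromosome 7, 48866429 to 48881596), an atypical E2F that represses E2F targets late in S phase, was nearly without reads at passage 2. It ran from 0 over 1.16 to 150 in passage 1, where 9 of 22 cells reached 10, and from 0 over 0 to 0.81 in passage 2, where 0 of 45 did. In reads this was 722 of 26400274 against 1 of 41340350, a ratio per total of 1131 with a 95% interval of 202 to 44717 that covers the counting of reads only. PCR reads without molecular identifiers are not independent molecules, so such intervals are too narrow. Its relative E2f7 was under the filter, and its log2 ratio of -2.00 became -0.02 without passage 1 cell 6. E2f2, also under the filter, gave 38 reads and 1 read.

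The cyclins of S, G2 and M, Cdk1 and its regulators had the lowest median log2 ratio of any role, -2.27, with 9 of 9 lower and 8 of them at least 2-fold. Ccnb1 (chromosome 13, 100778650 to 100786570), the main mitotic cyclin gene, had the highest passage 1 mean of the arm and, on this scale, the lowest log2 ratio of all members. E2f8 was the lower of the pair with a pseudocount of 0.1 (-7.61 against -4.98), with reads per total (-4.69 against -4.64), with thinned reads (-4.66 against -4.655) and in the cells matched on reads (-4.83 against -2.94). It ran from 0 over 73.2 to 1131 in passage 1 and from 0 over 0 to 164 in passage 2, with means of 225 ± 354 (SD, n = 22 cells) and 7.05 ± 27.4 (SD, n = 45 cells). The log2 ratio was -4.81, a fold of 28.1, and -5.66 without passage 2 cell 28. It reached 10 in 14 of 22 and 4 of 45 cells, and the share at passage 2, 8.89%, was that of the background gene Lck. Cdk1 (chromosome 10, 69335146 to 69352938), the mitotic kinase itself, ran from 0 over 118 to 412 in passage 1 and from 0 over 0 to 184 in passage 2. It reached 10 in 19 of 22 and 7 of 45 cells, its log2 ratio was -3.64, and the passage 2 cell was lower in 87.1% of pairs. Both Ccnb1 and Cdk1 reached 10 in the same cell in 13 of 22 passage 1 cells and in 1 of 45 passage 2 cells.

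Cdkn3, a phosphatase that acts on CDKs, reached 10 in more passage 1 cells than any other gene of the arm, 21 of 22, against 7 of 45 in passage 2. It ran from 0 over 44.9 to 162 and from 0 over 0 to 107, with a log2 ratio of -2.27. Ccnb2, the second B cyclin gene, had a log2 ratio of -1.54 and was at 10 in 14 of 22 and 7 of 45 cells, and without passage 2 cell 13 it was -2.22. Per kilobase it was the highest B cyclin, at means of 77.4 and 26.2 normalized counts per kb against 53.4 and 1.67 for Ccnb1. Before division by merged exon length (1531 and 4217 bases), the means were 119 and 40.2 for Ccnb2 and 225 and 7.05 for Ccnb1. The passage 1 order thus rested on those lengths, and passage 2 cell 13 held 39.9% of the Ccnb2 sum there. Ccnf, the cyclin that forms a ubiquitin ligase, gave 643 reads against 18, a ratio per total of 55.9 (95% interval 35.1 to 95, counting only). The phosphatases that activate Cdk1 stood at -1.57 for Cdc25b and -3.76 for Cdc25c. Cdc25b became -2.47 without passage 2 cell 6, and Cdc25c -4.61 without passage 2 cell 28. Wee1, the kinase that restrains Cdk1, stood at -1.18 but turned to 0.45 without passage 1 cell 21 and to -2.96 without passage 2 cell 18, so its direction rested on single cells too.

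Genes of ubiquitin ligases and the mitotic transcription factors were lower too, each with one passage 2 cell that carried most of its sum. Ube2c, the E2 enzyme of the anaphase-promoting complex, had the highest mean of the first group and ran from 0 over 23.3 to 285 in passage 1 and from 0 over 0.81 to 454 in passage 2. Its log2 ratio was -2.04, and -3.32 without passage 2 cell 9, which held 63.3% of the passage 2 sum. Cdc20, the activator of that complex, ran from 0 over 9.32 to 196 and from 0 over 0 to 224, with a log2 ratio of -1.72, and -3.004 without the same cell. Skp2, the F-box protein that marks p27 for destruction, was the lowest of the 3 at -2.32, with 0, 0 and 102 (lowest, median, highest) and 0, 0 and 45.1, and -3.07 without passage 2 cell 4. Foxm1, the activator of G2/M genes, ran from 0 over 14.6 to 159 and from 0 over 0 to 518, and its log2 ratio of -1.03 became -2.23 without passage 2 cell 40. Mybl2, its partner in late S phase, was under the filter at means of 4.70 and 2.18.

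Since the S and G2/M genes stood lower together, their promoters are shown with the 3 elements known from such genes. RefSeq windows of 300 bases on GRCm38.p6, from 250 before to 50 after the start, were found for 30 of the 41 members. Capitals mark the CHR letters TTTGAA, the CCAAT box CCAAT and the E2F letters TTTGGCGC, TTTCGCGC, TTTCCCGC or GGCGGGAA, each on either strand, so TTCAAA and ATTGG are marked as well. The last 2 E2F words overlap each other on opposite strands. Cdk1 (chr10:69352863-69353162, minus strand) and Cdc20 (chr4:118437294-118437593, minus strand) are shown as lower genes with both the CHR and CCAAT letters, Ccnb1 (chr13:100786437-100786736, minus strand) as a gene far lower at passage 2 with CCAAT letters only, E2f3 (chr13:29986014-29986313, minus strand) as a G1 gene that was lower, and Cdk4 (chr10:127063285-127063584, plus strand) as a G1 gene with none of the letters.
Cdk1: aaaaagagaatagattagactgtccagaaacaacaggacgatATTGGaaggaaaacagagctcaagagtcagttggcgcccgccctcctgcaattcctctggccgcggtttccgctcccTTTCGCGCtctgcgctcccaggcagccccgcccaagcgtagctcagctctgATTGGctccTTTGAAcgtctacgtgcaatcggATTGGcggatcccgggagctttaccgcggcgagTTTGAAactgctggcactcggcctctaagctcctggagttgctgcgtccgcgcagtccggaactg
Cdc20: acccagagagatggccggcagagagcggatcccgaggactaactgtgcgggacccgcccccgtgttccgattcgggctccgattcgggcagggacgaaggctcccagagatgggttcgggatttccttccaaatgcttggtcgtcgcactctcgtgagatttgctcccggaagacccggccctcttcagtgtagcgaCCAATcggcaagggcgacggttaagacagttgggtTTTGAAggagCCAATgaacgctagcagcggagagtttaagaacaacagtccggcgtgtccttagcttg
Ccnb1: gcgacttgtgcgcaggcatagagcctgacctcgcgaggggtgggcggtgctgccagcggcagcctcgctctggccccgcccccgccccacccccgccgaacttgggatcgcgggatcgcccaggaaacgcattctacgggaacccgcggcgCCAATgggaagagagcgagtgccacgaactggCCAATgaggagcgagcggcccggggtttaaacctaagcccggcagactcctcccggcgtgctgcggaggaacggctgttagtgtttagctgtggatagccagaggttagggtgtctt
E2f3: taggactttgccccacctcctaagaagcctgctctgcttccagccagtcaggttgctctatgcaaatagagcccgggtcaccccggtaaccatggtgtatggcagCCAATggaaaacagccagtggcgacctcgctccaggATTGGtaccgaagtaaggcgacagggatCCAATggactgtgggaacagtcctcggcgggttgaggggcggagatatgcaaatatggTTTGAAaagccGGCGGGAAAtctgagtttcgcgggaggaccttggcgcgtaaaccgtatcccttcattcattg
Cdk4: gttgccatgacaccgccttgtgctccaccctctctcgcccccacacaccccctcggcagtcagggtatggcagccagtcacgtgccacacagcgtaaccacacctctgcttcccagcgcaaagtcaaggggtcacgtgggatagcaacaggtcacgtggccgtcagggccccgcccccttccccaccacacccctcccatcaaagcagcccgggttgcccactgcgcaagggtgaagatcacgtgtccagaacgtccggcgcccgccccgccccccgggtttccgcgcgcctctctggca

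In the Cdk1 window the CHR letters began 71 and 15 bases before the start and the E2F letters 131 bases before it, with 3 CCAAT boxes on the reverse strand. The Ccnb1 window held CCAAT boxes 99 and 67 bases before the start and none of the CHR or E2F letters searched. Only TTTGAA, on either strand, was searched for CHR, so a CHR element of another spelling would not be marked. E2f8, whose log2 ratio was close to that of Ccnb1, held CHR letters 20 bases before the start, on the reverse strand. CHR letters occurred in 9 of 17 S and G2/M genes (52.9%), in 3 of 13 G1 genes (23.1%) and in 20.2% of 27025 genes with a window. CCAAT letters occurred in 14 of 17 (82.4%), 6 of 13 (46.2%) and 41.1%, and the E2F letters in 5 of 17 (29.4%), 3 of 13 (23.1%) and 4% of the same sets. Among the 6753 measured genes with a window the shares were 14.3% for CHR, 43% for CCAAT and 8.03% for E2F. A gene with more than one window counted once, as holding the letters if any window did, which applied to CHR in E2f2, E2f3 and Skp2. The other E2f3 window (chr13:29984342-29984641) held none of the letters. A match is a description of letters, not a bound site.

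Ccna2, the cyclin A2 gene, looked like the exception of its arm, and its counts need a caution from the annotation. It ran from 0.70 over 65.2 to 380 in passage 1 and from 0 over 6.81 to 1076 in passage 2, with a log2 ratio of -0.74, the highest of its role, and -1.51 without passage 2 cell 14. It reached 10 in 20 of 22 and 21 of 45 cells, more passage 2 cells than any other S and G2/M gene. Ccna2 (chromosome 3, 36564865 to 36572150, minus strand) shares 510 exon bases, 12.5% of its exon length, with Exosc9, an RNA exosome gene on the plus strand, and how the authors' counting treated strand is not given in the sources used here. Across the 45 passage 2 cells Exosc9 was the gene most like Ccna2 of 8681 compared, with a Spearman correlation of 0.93, and across the 22 passage 1 cells it ranked 2 with 0.77. All 21 passage 2 cells with Ccna2 at 10 also had Exosc9 at 10, while 4 of them had Cdk1 at 10. In passage 1, 18 of the 20 cells with Ccna2 at 10 had Exosc9 and 17 had Cdk1. Correlations of this kind are descriptions, since the cells of a passage share a library set and depth enters both sides. Reads of the overlapping gene counted as Ccna2 cannot be told apart from Ccna2 reads here.

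**Figure D4:**
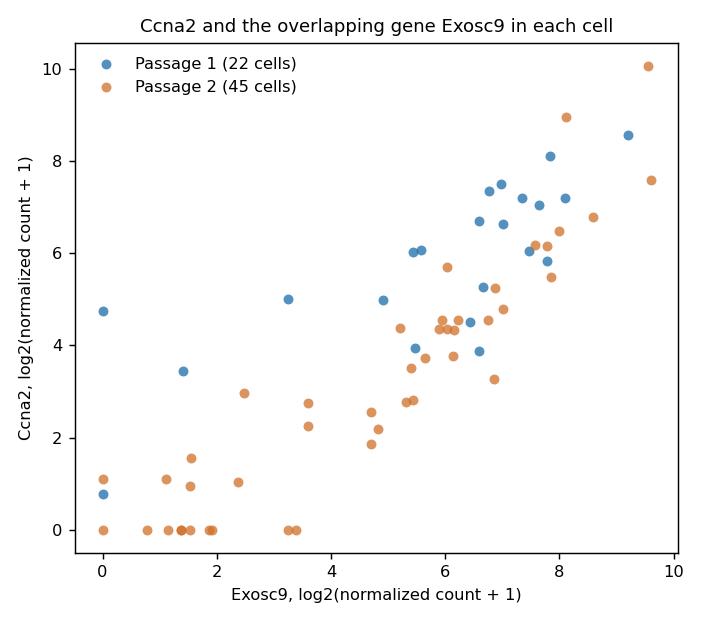
Each point is 1 cell, with Exosc9 on the horizontal axis and Ccna2 on the vertical axis, both as log2(normalized count + 1), passage 1 in blue (22 cells) and passage 2 in orange (45 cells). In passage 2 the points run from the origin to the upper right, where cell 14 has the highest Ccna2, with a Spearman correlation of 0.93.

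Other members with an overlapping neighbour followed it to different degrees. Ccne2 shares 17.4% of its exon bases with Ints8, a subunit of the Integrator complex, and in passage 2 Ints8 was the gene most like it, with a correlation of 0.66, and was at 10 in all 12 cells with Ccne2 at 10. In passage 1 the gene most like Ccne2 was Uhrf1, a gene of maintenance DNA methylation, at 0.83, and Ints8 ranked 37 at 0.61. Ccnd1 shares 23.4% with LTO1, which was the gene most like it in both passages, at 0.89 and 0.74. Cdk4 shares 19.7% with Tspan31, which ranked 707 at 0.27 in passage 1 and was the gene most like it in passage 2, at 0.58. Tspan31 itself had the higher mean at passage 2, 283 against 213, while Cdk4 had the lower. Rbl2 shares 21% with Aktip, which ranked 364 at 0.48 in passage 1 and 30 at 0.46 in passage 2. Rb1 shares 14.9% with Lpar6 and Rcbtb2. Lpar6 ranked 39 at 0.61 and 8 at 0.45, and Rcbtb2 ranked 674 at 0.37 and 43 at 0.39. Ube2c overlaps Tnnc2, which had 0 reads in every cell. Leaving out every member with at least 10% of its exon bases shared gave arm medians of -1.55 and 0.40 over the 14 and 11 measured genes left. By that count 22 of 45 passage 2 cells held no S and G2/M gene at 10, against 0 of 22 in passage 1.

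Counting genes within each cell shows that passage 2 cells differed in how many S and G2/M genes they held. A passage 1 cell held from 3 over a median of 10.5 to 17 of the 22 genes at 10 or more, and a passage 2 cell from 0 over 2 to 10. At least 5 were held by 20 of 22 cells (90.9%, interval 70.8 to 98.9) and 6 of 45 (13.3%, 5.05 to 26.8), and at least 10 by 13 of 22 and 1 of 45. None was held by 0 of 22 and 9 of 45 cells, and 6 more passage 2 cells held Ccna2 alone. With each cell thinned to 500000 reads, which removed 0 cells, the median number with a read was 12.5 and 4, and without thinning 14 and 6. The G1 arm's share of a cell's reads in all 41 genes needs no scaling between cells, and it ran from 31% over 57.6% to 89.8% in passage 1 and from 37.6% over 94.4% to 99.7% in passage 2. It exceeded 90% in 0 of 22 and 30 of 45 cells, and was under 50% in 9 of 22 and 1 of 45. The share does not weigh genes equally. Of the G1 arm's sum of normalized counts, Ccnd2 made up 41.3% at passage 1 and 47.8% at passage 2, and Cdk4 22.1% and 13%.

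**Figure D5:**
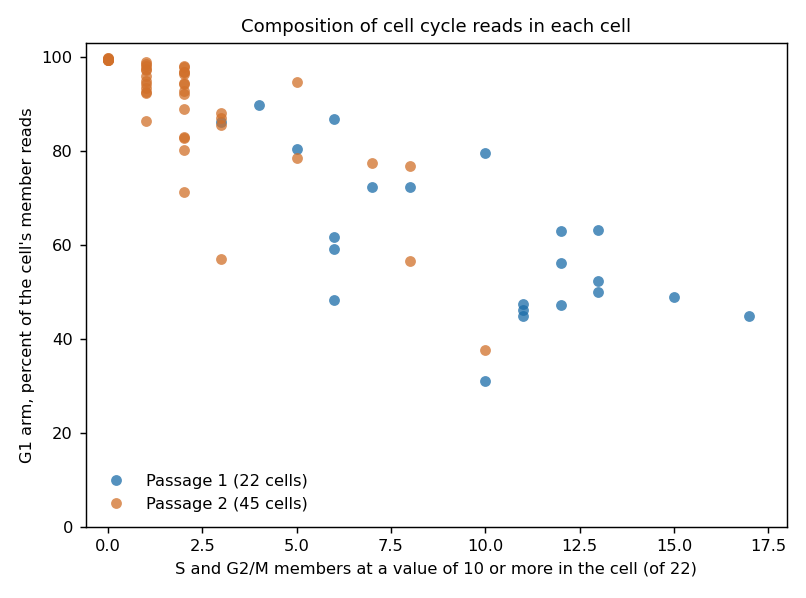
Each point is 1 cell, placed by the number of S and G2/M genes at 10 or more on the horizontal axis and by the percentage of its member reads in the G1 arm on the vertical axis. The 22 passage 1 cells in blue spread from 3 to 17 genes, and most of the 45 passage 2 cells in orange sit at the upper left with 2 or fewer, apart from cell 9 at 10 genes and 37.6%.

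What remained of the arm at passage 2 lay in few cells. The 3 highest cells held 43.1% of the passage 2 sum of normalized counts over S and G2/M genes, against 29.4% for the 3 highest of the 22 passage 1 cells and 13.2% for the G1 arm at passage 2. Passage 2 cell 9 was the only one of its passage with 10 genes, among them Ube2c at 454, Cdc20 at 224, Ccnb2 at 204, Cdk1 at 184 and Ccnb1 at 70.7, and it carried 9 smooth muscle markers. Cell 14 held 8, with Ccna2 at 1076, Ccnb2 at 260 and Cdkn3 at 107, and also had the highest Cdkn1a value of all cells, 790. Cell 28 held 7, with Ccnb1 at 164 and Cdc25c at 101. Cell 8 held 8 genes, led by Ccne2 at 190, and carries endothelial markers. Cell 18 showed another set: Wee1 at 268, Cdc25a at 221, Cdk2 at 81.1, E2f1 at 46.6 and Ccne2 at 10.1, with Cdk1, Ccnb1 and Ccnb2 at 0. It was also the cell with the fewest reads of its passage, 548419.

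Mki67 and Top2a, markers of cycling cells that are not among the 41 genes, were at 10 in 16 of 22 passage 1 cells (either gene) and 10 of 45 passage 2 cells. Of those 10 passage 2 cells, Ccnb2 and Cdkn3 were each at 10 in 6, and Ccnb1 and Cdk1 each in 4. Of the other 35, Ccnb1 was at 10 in 0, Ccnb2 and Cdkn3 each in 1, and Cdk1 in 3. Ccna2 did not follow, being at 10 in 4 of the 10 and 17 of the 35. In the 6 passage 1 cells without either marker, Cdkn3 was still at 10 in 5 and Cdk1 in 4. Over the 22 passage 1 cells the members most like the sum of Mki67 and Top2a were Ccnb1 (Spearman 0.75), Ube2c (0.73), Cdkn2c (0.69) and Cdc20 (0.60), so an INK4 inhibitor stood among mitotic genes. Over the 45 passage 2 cells they were Ccnb1 (0.51), Cdk1 (0.43) and Cdkn3 (0.42). With thinned reads the order at passage 2 was another, with Cdkn3 at 0.49, Mybl2 at 0.47, Cdc20 at 0.45 and Ccnb1 at 0.35, while Ccnb1, Ube2c and Cdkn2c led at passage 1 (0.80, 0.75 and 0.68). Cdkn2c, under the filter, had a read in 10 of the 22 passage 1 cells and a correlation of 0.50 with their reads. In passage 2 its correlation with the sum of Mki67 and Top2a was 0.11. Cdkn1a had a correlation of 0.61 with the number of S and G2/M genes in passage 1 and -0.02 in passage 2. Its correlation with a cell's reads was 0.39 and -0.04, and depth also enters the number of genes. Cdkn1a and Cdk1 were both at 10 in 11 of 22 and 4 of 45 cells.

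Related genes of the same machinery are given by count, beside the 19.4% and 14.4% of measured genes that were at least 2-fold lower and higher. Among all genes that passed the filter in both passages those shares were 12.3% and 10%. The filter leans on these counts too, where a gene passed in 1 passage only. The list of checkpoint and mitotic kinases also holds Bora, Cdt1 and Gmnn, which are not kinases. All 9 measured genes of this list were at least 2-fold lower, with a median log2 ratio of -2.50. Apart from Chek1, all of them had a passage 2 mean under 10 and passed the filter at passage 1 only, so their count was largely set by the filter. The 9 genes ran from Bora (-1.39), a cofactor of Aurora A, to Aurkb (-4.74), the Aurora B kinase, whose mean was 77.7 and 1.94. Of 7 measured MuvB and DREAM subunits and DP partners, which repress or activate these promoters, 4 were lower and 0 higher, with a median of -1.41. They ran from Lin54 (-2.26), the subunit that binds CHR elements, to Lin37 (0.23). Of these, Lin54, Lin9 and E2f6 passed the filter at passage 1 only, and Lin37 at passage 2 only. Of 16 anaphase-promoting complex genes 3 were lower and 0 higher, with a median of -0.31, from Fbxo5 (-3.62), which inhibits the complex, to the subunit gene Anapc13 (0.72). Fbxo5 passed the filter at passage 1 only and Anapc13 at passage 2 only. Of 8 genes of SCF ligases 3 were lower and 0 higher, with a median of -0.40, from Fbxo5, which is in both lists, to Fbxw7 (0.78), which marks cyclin E for destruction. Of 21 measured transcriptional and other cyclins and CDKs 2 were lower and 7 higher, with a median of 0.29, from Ccny (-1.46) to Cdk9 (3.29), the kinase of transcription elongation. Cdk9 and Ccng2 passed the filter at passage 2 only and Ccnk at passage 1 only. Cdk9 had means of 2.23 and 30.5, with a passage 2 median of 2.03 and a highest passage 2 value of 329. Of 8 measured mitogen and p53 input genes 0 were lower and 1 higher, with a median of 0.18, from Mxd4 (-0.31) to Myc (1.62), whose mean was 30.7 and 96.6 and whose median was 21.7 and 23.3.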

How the data were processed

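Cells were captured singly on a Fluidigm C1 instrument and given dual-indexed Nextera XT libraries, per the labels' protocols. The submitters' processing notes name BWA, SAMtools, HTSeq, DESeq and GRCm38, with versions, strand and multi-mapping handling not given in the sources used here. The deposited signal values are gene counts divided by 1 size factor per cell. Dividing each column by its smallest step gave whole reads for 100% of 509576 values above 0, to within 0.001. Each cell was its own library, and no doublet caller was run.

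Symbols, exon lengths and overlaps came from GENCODE M21 (37607 of 39179 rows had a symbol) and promoters from RefSeq. Levels are normalized counts, per kilobase of merged exon where genes are compared. The pseudocount was 1. Shares of cells have exact Clopper-Pearson 95% intervals, which cover the counting of cells only. The 41 genes, the lists and the rule for named genes (in each role the highest mean and the highest and lowest ratio, members opposite in sign to their arm's median, and all measured inhibitors) were chosen with earlier results of these data known. The count of cells with Exosc9, Ints8 and the other overlapping genes was added after seeing the data. Alternatives were other pseudocounts, scalings (reads per total, and TMM from edgeR 4.0.16), summaries over cells, filters, thinning, matching on reads, and each cell left out in turn. Simulated data with known ratios were used to test the code. Values were computed in Python 3.11.15 and R 4.3.3, with pandas 2.3.3, numpy 2.4.6 and scipy 1.17.1, and plotted with matplotlib 3.10.9.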

Additional observations from a re-analysis of the deposited data

How the results depend on the processing

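The S and G2/M median log2 ratio of -1.72 stayed negative under every alternative run. It was -1.08 with a pseudocount of 10, -3.37 with medians over cells, -2.45 with means of log2 values, -2.96 with 12 pairs of cells matched on depth to within 10%, and -2.58 with a stricter filter (a mean of 50 and a read in 50% of cells). The G1 median of 0.26 was -0.37 with means of log2 values, where all genes had a median of -0.62, and -0.23 with medians over cells, where all genes had -0.60. With each cell left out the medians ran from -2.30 to -1.53 and from 0.12 to 0.37. Other scalings (reads per total, TMM) left all 19 measured S and G2/M genes negative, while 15 were negative with medians over cells, 15 without the cells with Mki67 or Top2a and 16 in the matched cells. The G1 share of member reads at passage 1 was 79.2% in the 6 cells without Mki67 or Top2a.

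Of members at least 2-fold apart, these lost or changed their sign, and the cause was not tested. With medians over cells E2f4 was at -1.31, and Cdkn2b, E2f2, E2f7, Ccnf, Wee1 and Skp2 were at 0 because both medians were 0, as were Cdc25a, Mybl2 and Rbl1, which were less than 2-fold apart. With means of log2 values E2f4 was at -0.37. Among cells without Mki67 or Top2a, of which passage 1 had 6 and passage 2 had 35, E2f1 was at 1.03, E2f2 at 0.046, Ccnf at 0.70 and Wee1 at 2.40. In the cells matched on reads Cdkn2d was at 1.40, E2f1 at 0.90 and Foxm1 at 0.80. Wee1 ran from -2.96 to 0.45 with each cell left out. Of members less than 2-fold apart, Cdk6 was at -3.73 with medians over cells, -1.13 with means of log2 values and -0.23 in matched cells, Rb1 at -1.34, -0.94 and -1.26, and Cdk7 at -0.23 with medians. Cdc25a was at 0.80 without the cells with Mki67 or Top2a and Rbl2 at 2.19. Ccnd1, Ccnd3, Cdkn1c, Cdkn2a, Cdkn2c, Rbl1 and Mybl2 also reached or crossed 0 under at least 1 alternative.

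Reads per cell limit what a value of 0 shows, and passage 2 cells were shallower. No paired analysis was possible because the replicate numbers only name cells in order and the passages share no animal or culture in the labels.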
